A study of Mus musculus with 6 samples.

Results

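Liver makes fatty acids from citrate and stores them as triglyceride, and 32 genes of that route were followed here in mice with and without Gα12. Gα12, encoded by Gna12, belongs to the heterotrimeric G proteins and passes on signals from cell surface receptors. The genes were taken by name, as those whose RefSeq accession (GRCm38) matched a probe of a 1-colour Agilent mouse expression array. All 32 had a probe (42 probes in all), out of 20284 named genes on the array. They were divided into 3 regulators, 9 genes of fatty acid synthesis and its supply of acetyl-CoA and NADPH, 9 genes of desaturation and elongation, and 11 genes of glycerolipid assembly.

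Both groups were male mice of 8 weeks on chow, killed after a night without food: 3 wild-type (WT) and 3 Gα12 KO. The labels name C57BL/6 (95% of the genome) and 129/Sv as the strains of both groups. The construct and the deleted part of Gna12 are not stated in them. Each array carried RNA from the liver of 1 mouse, and the comparison asked which transcripts differ when Gα12 is missing. In whole liver, fewer cells of a type and less RNA per cell cannot be told apart.

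As background, acetyl-CoA carboxylase makes malonyl-CoA, and fatty acid synthase builds palmitate from it with NADPH. Elongases and desaturases then change the length and the double bonds of the chain, and acyltransferases and phosphatidate phosphatases join chains to glycerol. The transcription factors SREBP-1 and ChREBP induce many of these enzymes in the fed liver, under insulin and glucose, and in fasted liver, as sampled here, the route is usually held low.

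Each level below is the log2 signal of a probe minus the 75th percentile of its array. Differences are Gα12 KO minus WT on that log2 scale, with the standard error (SE) of limma, a linear model with shared variance across probes. A gene was represented by its brightest probe among those that stood well above background on 3 or more of the 6 arrays. In all, 31 of the 32 genes had such a probe. The exception was Pnpla5, a lipase-like gene, which was not well above background on any array. Its levels were -5.08, -5.32 and -5.79 in WT and -4.60, -4.32 and -4.65 in Gα12 KO, and they are given without a fold.

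The arrays themselves differed in ways that touch every result. Between 20953 and 23530 probes were well above background on each array except WT replicate 3, which had 28752. WT replicate 3 also had the highest 75th percentile of log2 signal, 9.09 against 7.80 to 8.63. Spots flagged as non-uniform numbered 145, 158 and 98 on the Gα12 KO arrays and 2, 4 and 6 on the WT arrays. No probe of a gene was saturated. Across probes, the Pearson correlation between WT replicates 1 and 2 was 0.973, that of these arrays with the 3 Gα12 KO arrays ran from 0.869 to 0.930, and that of WT replicate 3 with the Gα12 KO arrays from 0.966 to 0.982. The 7 probes of the glycolytic gene Gapdh had a range of 9.58 (log2) on WT replicate 1 and of 7.79 on WT replicate 2, against 4.01 on WT replicate 3 and 4.36 to 4.87 on the Gα12 KO arrays. All WT arrays lay in a different slide row from all Gα12 KO arrays, so that the row cannot be told apart from the genotype. The probe of Gna12 had levels of -3.48, -4.55 and -0.89 in WT and -4.91, -4.62 and -3.47 in Gα12 KO, and only that of WT replicate 3 was well above background, so that it checks the genotype labels weakly. The hepatocyte genes Alb, Ttr, Apoa1, Apob, Serpina1a, Hnf4a, Cyp2e1, Cps1 and Tat were well above background in both groups.

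None of the 31 genes passed limma's test at an adjusted p below 0.05, nor did any of the 12297 genes tested on the array (0%). At an unadjusted p below 0.05, 7 of the 31 were lower in Gα12 KO (Elovl6, Fasn, Acaca, Mlxipl, Mogat1, Acly and Me1), where 16.6% of all genes tested were. On the other side 2 of the 31, Lpin1 and Srebf1, were higher, against 3.98% of all genes tested. The 2 groups did not overlap for 4 genes that were lower (Acly, Fasn, Elovl6 and Mogat1), against 21.1% of all genes, and for 2 that were higher (Srebf1 and Lpin1), against 4.42%. These shares are near the background or rest on few genes. The median difference over the 31 genes was -0.58, beside -0.49 over all genes. The lowest adjusted p among the 31 genes was 0.235, shared by all 9 genes named here.

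**Figure D1:**
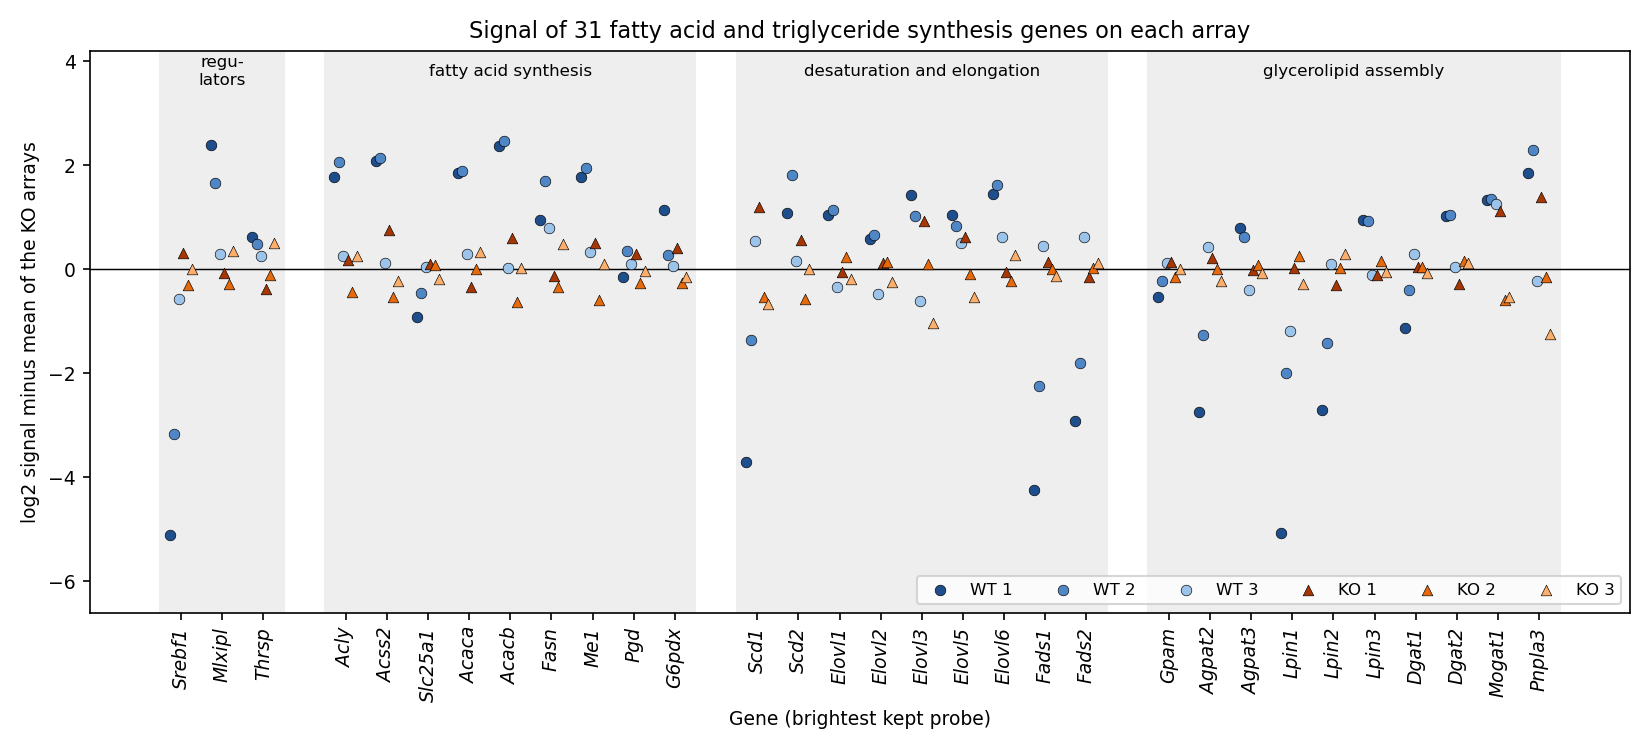
The log2 signal of each of the 31 measured genes, minus the mean of its 3 Gα12 KO arrays (y axis), is plotted for the 6 arrays, with the genes on the x axis by role; circles are WT and triangles Gα12 KO. WT replicates 1 and 2 lie farthest from 0, above it for most genes of fatty acid synthesis and below it most clearly for Srebf1, Scd1, Fads1, Fads2, Agpat2, Lpin1 and Lpin2.

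The regulators pointed in different directions. Srebf1 encodes SREBP-1, the sterol regulatory element binding protein that drives lipogenic transcription. Its levels were -3.56, -1.62 and 0.98 in WT replicates 1 to 3 and 1.86, 1.23 and 1.54 in the Gα12 KO livers, so that all Gα12 KO livers lay above all WT livers. The signal of WT replicate 1 was not well above background. The means were -1.40 ± 2.28 (SD, n = 3) and 1.54 ± 0.31 (SD, n = 3), a difference of 2.94 (95% interval 0.61 to 5.27, limma adjusted p = 0.235). WT replicate 3 alone was 0.56 below the Gα12 KO mean, so that most of the difference came from the other WT livers.

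Mlxipl encodes ChREBP, which responds to glucose metabolites. Its levels were 7.64, 6.89 and 5.54 in WT and 5.17, 4.96 and 5.60 in Gα12 KO, a difference of -1.45 (SE 0.55, limma adjusted p = 0.235). WT replicate 3 lay within the range of the Gα12 KO livers, and WT replicates 1 and 2 above it. Thrsp, whose product Spot 14 is a lipogenic cofactor induced by thyroid hormone and carbohydrate, had levels of 6.42, 6.29 and 6.06 in WT and 5.42, 5.68 and 6.31 in Gα12 KO. The difference of -0.45 (SE 0.35, limma adjusted p = 0.385) has a 95% interval of -1.27 to 0.36, and the groups overlapped.

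The sequences before the start sites are shown for Mlxipl, Fasn, Acly and Lpin1, since the regulators above act through such regions. Srebf1, Elovl6 and Mogat1, whose groups did not overlap, also have windows, which are not shown. RefSeq (GRCm38.p6) gave a window of 250 bases before the start for 26 of the 32 genes, 37 windows in all. There was no window for Scd1, Scd2, Elovl3, Fads1, Dgat1 and Dgat2, so that these were not searched and the matches below leave them out. Capitals mark the letters CACGTG (E-box, read by ChREBP, USF and SREBP proteins), TCACNCCAC (a sterol regulatory element, SRE), CCAAT (the box read by NF-Y) or GGGCGG (GC box), on either strand. A match is a description of the letters only. The E-box letters were in 5 of the 37 windows (13.5%) and in 6.02% of 32851 windows of all genes, the SRE letters in 1 (2.70%, against 1.05%), the CCAAT letters in 16 (43.2%, against 33.8%) and the GC box letters in 20 (54.1%, against 32.7%). Mlxipl has a pair of RefSeq start sites on the plus strand, the first preceded by E-box, CCAAT and GC box letters and the second by the single SRE match among the genes:
Mlxipl, chr5:135089640-135089889 (plus strand): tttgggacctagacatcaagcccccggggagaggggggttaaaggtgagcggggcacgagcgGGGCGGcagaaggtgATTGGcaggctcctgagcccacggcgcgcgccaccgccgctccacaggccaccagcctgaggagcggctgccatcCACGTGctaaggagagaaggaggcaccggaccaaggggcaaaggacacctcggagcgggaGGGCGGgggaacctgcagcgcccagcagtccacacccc
Mlxipl, chr5:135106641-135106890 (plus strand): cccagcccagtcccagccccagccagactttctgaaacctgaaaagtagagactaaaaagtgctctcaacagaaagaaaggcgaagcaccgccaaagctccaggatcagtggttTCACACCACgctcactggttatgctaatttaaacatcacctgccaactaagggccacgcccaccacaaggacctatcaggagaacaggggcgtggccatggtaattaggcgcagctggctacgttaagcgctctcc

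The genes of fatty acid synthesis mostly had lower means in Gα12 KO. Of 9 measured genes 8 did, where 72.3% of all genes did, and 4 of them (Acaca, Fasn, Acly and Me1) had an unadjusted p below 0.05, against 16.6% of all genes. Here the median difference was -1.34, beside -0.49 over all genes. With the mean over the probes of each gene it was -0.62, beside -0.43 over all genes. WT replicates 1, 2 and 3 lay 1.77, 1.88 and 0.13 above the Gα12 KO mean in the median of these genes, and 0.82, 0.71 and 0.03 over all genes. The excess was thus in WT replicates 1 and 2. No test of the group as a whole was made.

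Fasn encodes fatty acid synthase. Its levels were 1.37, 2.13 and 1.21 in WT and 0.29, 0.07 and 0.90 in Gα12 KO. All Gα12 KO livers lay below all WT livers, WT replicate 3 included. The difference was -1.15 (SE 0.39, limma adjusted p = 0.235), which is 2.21-fold, and WT replicate 3 alone was 0.79 above the Gα12 KO mean. Fasn is the gene of this role in which WT replicate 3 stood farthest from the Gα12 KO mean.

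Acaca encodes acetyl-CoA carboxylase 1, the cytosolic form that commits carbon to synthesis. It had 6.00, 6.04 and 4.44 in WT and 3.82, 4.16 and 4.49 in Gα12 KO, a difference of -1.34 (SE 0.50, limma adjusted p = 0.235). The WT livers divided again, with WT replicate 3 inside the Gα12 KO range. Acacb, the gene of the mitochondrial form whose malonyl-CoA restrains fatty acid entry, had 6.01, 6.10 and 3.65 in WT and 4.24, 3.00 and 3.67 in Gα12 KO. Its difference was -1.62 (SE 0.70, limma adjusted p = 0.238), and WT replicate 3 lay within the Gα12 KO range, with the Gα12 KO mean minus WT replicate 3 at -0.02.

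Acly encodes ATP citrate lyase, which makes cytosolic acetyl-CoA from citrate. Its levels were 7.72, 8.00 and 6.20 in WT and 6.12, 5.51 and 6.20 in Gα12 KO, a difference of -1.36 (SE 0.52, limma adjusted p = 0.235). The groups did not overlap only because WT replicate 3 and Gα12 KO replicate 3, equal to 2 decimals, fell in that order. Acss2, which makes acetyl-CoA from acetate, had 8.00, 8.06 and 6.05 in WT and 6.68, 5.39 and 5.69 in Gα12 KO, a difference of -1.45 (SE 0.62, limma adjusted p = 0.238). There WT replicate 3 lay within the Gα12 KO range. Slc25a1, the gene of the mitochondrial citrate carrier, was the exception of the role, with 4.48, 4.95 and 5.44 in WT and 5.51, 5.49 and 5.21 in Gα12 KO (difference 0.44, SE 0.36).

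Among the genes that supply NADPH, Me1, the gene of cytosolic malic enzyme, had 6.10, 6.27 and 4.67 in WT and 4.83, 3.75 and 4.42 in Gα12 KO, a difference of -1.35 (SE 0.52, limma adjusted p = 0.235). The pentose phosphate genes differed less. Pgd, for phosphogluconate dehydrogenase, had a difference of -0.11 (95% interval -0.86 to 0.65), and G6pdx, for glucose-6-phosphate dehydrogenase, one of -0.49 (-1.43 to 0.45). For Me1, Pgd and G6pdx alike, WT replicate 3 lay within the Gα12 KO range.

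RefSeq gives 1 start site each for Fasn and Acly, both on the minus strand. They are shown because these are the genes of the role whose groups did not overlap. The Fasn window holds 3 matches to CCAAT, the first bases of which lie 90, 62 and 59 bases before the start, the last pair sharing bases on opposite strands. The Acly window holds 4 GC box matches:
Fasn, chr11:120824548-120824797 (minus strand): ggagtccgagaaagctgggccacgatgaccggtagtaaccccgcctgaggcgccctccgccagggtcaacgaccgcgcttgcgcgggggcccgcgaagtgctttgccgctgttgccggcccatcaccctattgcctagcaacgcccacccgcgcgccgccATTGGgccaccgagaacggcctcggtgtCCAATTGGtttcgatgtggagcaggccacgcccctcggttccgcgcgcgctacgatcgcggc
Acly, chr11:100528001-100528250 (minus strand): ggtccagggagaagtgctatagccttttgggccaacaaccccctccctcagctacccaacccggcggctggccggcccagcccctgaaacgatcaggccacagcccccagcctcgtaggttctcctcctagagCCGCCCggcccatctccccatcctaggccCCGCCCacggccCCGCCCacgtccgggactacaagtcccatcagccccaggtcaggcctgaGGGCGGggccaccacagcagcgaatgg

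**Figure D2:**
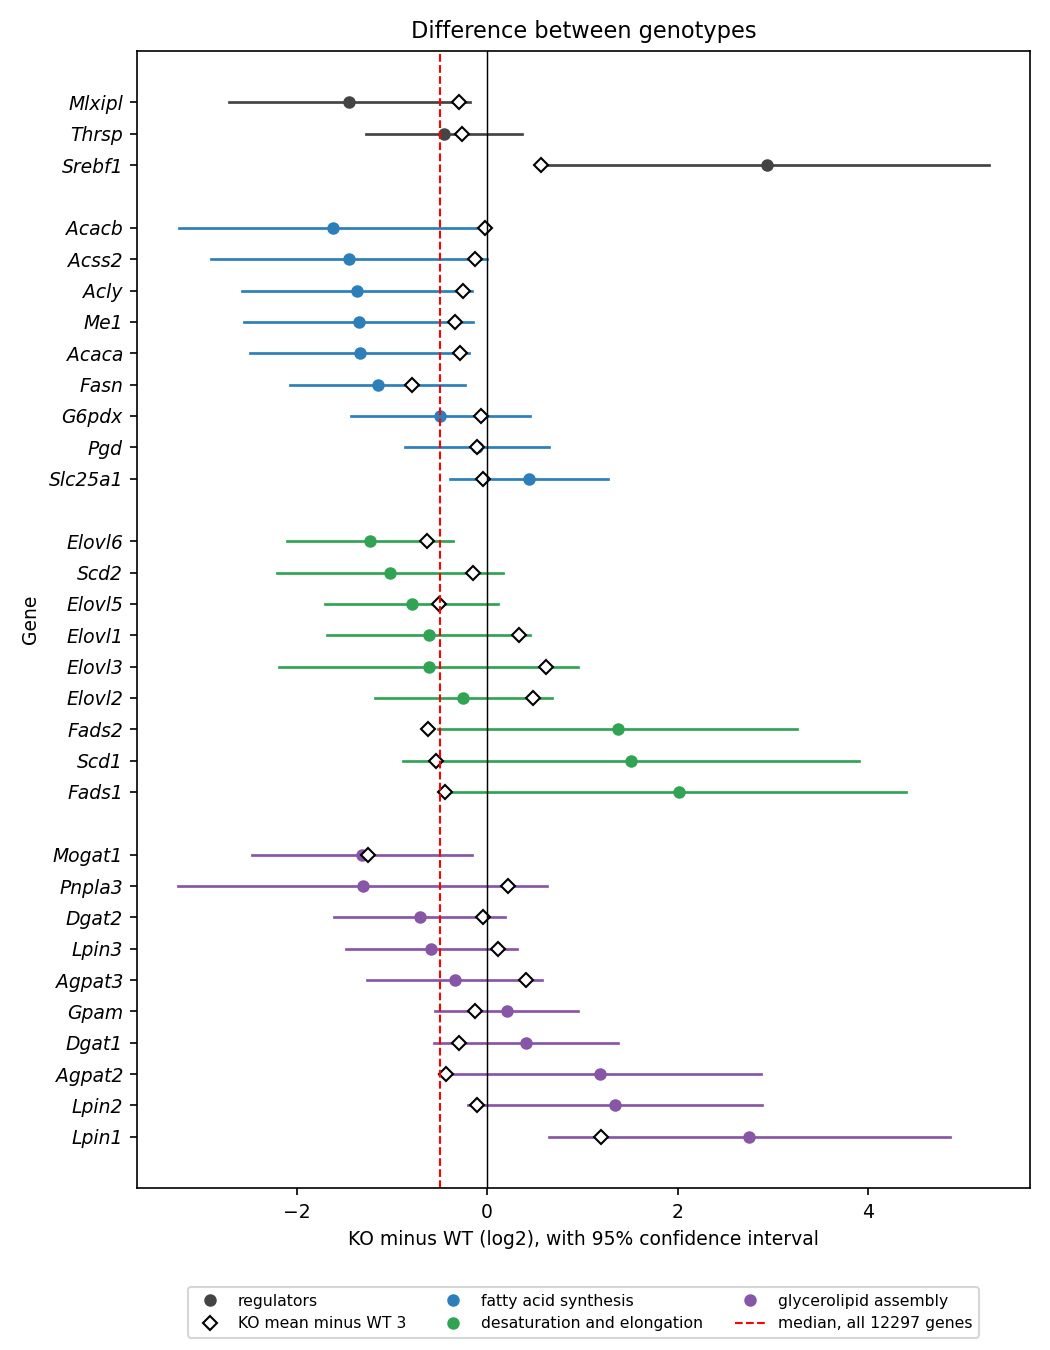
Each row is a gene, with the x axis in log2 units: the filled point is Gα12 KO minus WT from limma, the bar its 95% confidence interval, the open diamond the Gα12 KO mean minus WT replicate 3, and the dashed line the median over all genes (-0.49). For Lpin1, Srebf1, Mogat1, Fasn, Elovl6 and Elovl5 the diamond lies on the same side of 0 as the point and more than 0.5 from 0, whereas for Scd1, Fads1 and Fads2 it lies on the other side.

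Several genes of this route carried more than 1 probe, and those probes often differed. Of 8 such genes, 6 had 2 or more probes past the filter. For Acss2, Acacb and Elovl1 the second probe differed in the opposite direction from the first: 0.21 (SE 0.60) for Acss2, 0.89 (SE 0.59) for Acacb and 1.07 (SE 0.60) for Elovl1. For Acly the second probe, with levels of -2.36, -2.03 and -1.18 in WT and -2.08, -2.04 and -1.51 in Gα12 KO, differed by -0.02 (SE 0.40). The other probes of Me1 differed by -0.27 (SE 0.46) and -1.09 (SE 0.43). Of the other Acaca probes, past no filter, 1 was well above background on no Gα12 KO array and the other on 1.

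The disagreement was on particular arrays. For Acacb the first probe exceeded the second by 9.16 (log2) on WT replicate 1, 8.08 on WT replicate 2 and 4.36 on WT replicate 3, and by 4.25 to 5.07 on the Gα12 KO arrays. For Acss2 the gap was 6.14, 4.66 and 2.22 on the WT arrays and 2.62 to 2.72 on the Gα12 KO arrays, and for Elovl1 it was 6.70, 5.76 and 2.95 against 3.25 to 3.71. In 6 of 7 such pairs the gap on WT replicates 1 and 2 was above all Gα12 KO arrays, and in 0 of 7 was that on WT replicate 3, which was below all of them in 5. The seventh pair was that of Lpin1. The range of the Gapdh probes was widest on the same 2 arrays. The part of this in the differences above was not tested.

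**Figure D3:**
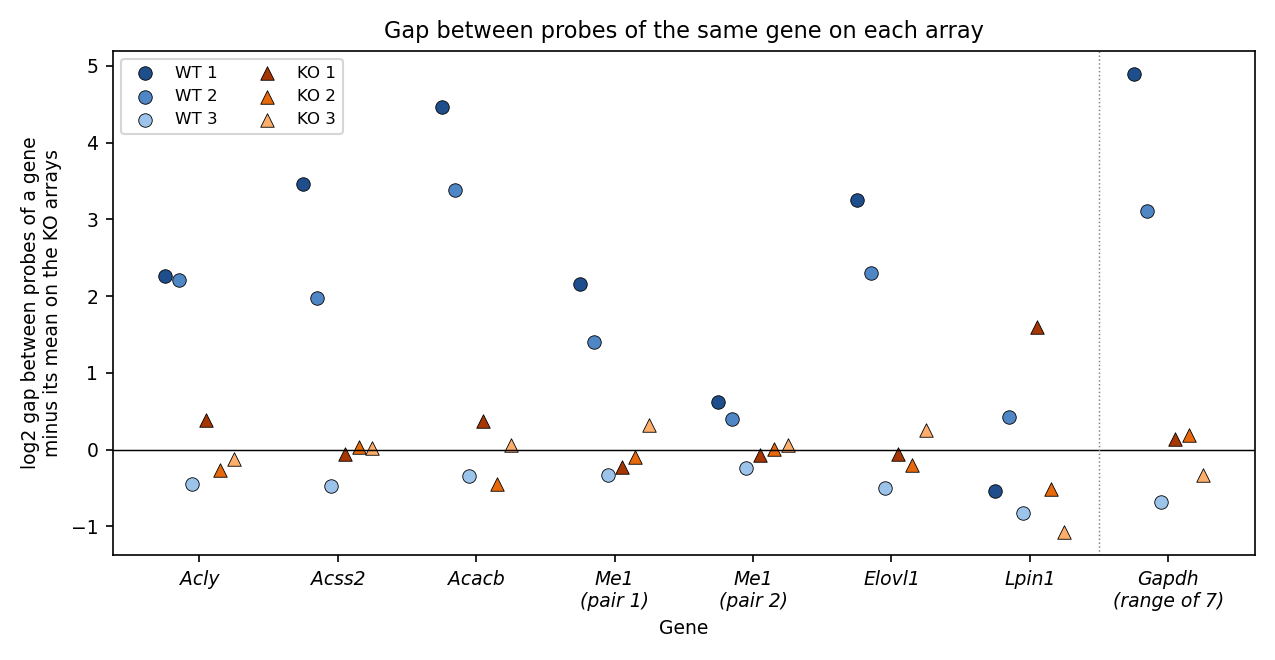
The gap between the brightest probe of a gene and another of its probes, minus the mean gap on the Gα12 KO arrays, is plotted on the y axis (log2) for 7 pairs of probes of 6 genes, with the range over the 7 Gapdh probes at the right, treated likewise. WT replicates 1 and 2 (dark circles) lie above the other arrays in all pairs but that of Lpin1.

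Desaturation and elongation genes were divided. Of 9 measured, 6 had lower and 3 higher means in Gα12 KO, and the median difference was -0.61. Elovl6, the elongase that lengthens palmitate to stearate, was the gene with the lowest p among the 31 measured. Its levels were 4.63, 4.80 and 3.81 in WT and 3.14, 2.96 and 3.46 in Gα12 KO, and no WT liver overlapped a Gα12 KO liver. The difference was -1.23 (SE 0.38, unadjusted p = 0.0121, limma adjusted p = 0.235), which is 2.34-fold, and WT replicate 3 alone was 0.63 above the Gα12 KO mean.

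Scd1 encodes the main hepatic stearoyl-CoA desaturase, which makes oleate. Its levels were 3.66, 6.02 and 7.92 in WT and 8.58, 6.85 and 6.71 in Gα12 KO, a difference of 1.51 (SE 1.03, limma adjusted p = 0.336) whose 95% interval runs from -0.88 to 3.91. The WT livers had an SD of 2.13, and WT replicate 3 lay within the Gα12 KO range. Scd2, a second desaturase gene, had 0.45, 1.19 and -0.48 in WT and -0.07, -1.20 and -0.63 in Gα12 KO (difference -1.02, SE 0.51).

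The genes of polyunsaturated fatty acid desaturases had the same order of arrays as Scd1 in WT. Fads1, for the Δ5 desaturase, had 0.06, 2.07 and 4.76 in WT and 4.45, 4.31 and 4.18 in Gα12 KO, and Fads2, for the Δ6 desaturase, had -1.95, -0.83 and 1.60 in WT and 0.84, 0.99 and 1.10 in Gα12 KO. The differences of 2.02 (SE 1.03) and 1.37 (SE 0.81) had adjusted p-values of 0.253 and 0.291 in limma. In both genes WT replicate 3 lay above all 3 Gα12 KO livers and WT replicates 1 and 2 below them, so that the Gα12 KO mean was 0.44 and 0.62 below WT replicate 3.

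The other elongases had overlapping groups. Elovl5, which lengthens polyunsaturated chains, differed by -0.79 (SE 0.39), Elovl1 by -0.61 (SE 0.46), Elovl3, of very long saturated chains, by -0.61 (SE 0.67), and Elovl2 by -0.25 (SE 0.40), with adjusted p-values of 0.250 to 0.664 in limma. Against WT replicate 3 alone the Gα12 KO mean was 0.34 higher for Elovl1, 0.48 for Elovl2 and 0.61 for Elovl3. Elovl3 had an SD of 0.99 within Gα12 KO, at 5.81, 4.98 and 3.84, and of 1.08 within WT, at 6.30, 5.91 and 4.26.

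Glycerolipid assembly had the most balanced values. Of 10 measured genes 5 had lower and 5 higher means in Gα12 KO, and the median difference was -0.07. Lpin1 encodes lipin 1, a phosphatidate phosphatase that makes diacylglycerol and also acts as a transcriptional coactivator in fasting liver. Its levels were -1.57, 1.49 and 2.30 in WT and 3.51, 3.76 and 3.22 in Gα12 KO, with all Gα12 KO livers above all WT livers. The difference was 2.76 (SE 0.91, limma adjusted p = 0.235). WT replicate 3 alone was 1.20 below the Gα12 KO mean. The second Lpin1 probe, well above background in 1 WT liver, had -5.05, -2.95 and -0.89 in WT and -2.10, 0.26 and 0.28 in Gα12 KO (difference 2.45, SE 1.08), and there the groups overlapped.

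Mogat1 encodes a monoacylglycerol acyltransferase. Its levels were -1.03, -1.01 and -1.12 in WT and -1.25, -2.95 and -2.90 in Gα12 KO, a difference of -1.31 (SE 0.49, limma adjusted p = 0.235). Here the WT livers lay close together (SD 0.06, n = 3) and the spread was in Gα12 KO (SD 0.97, n = 3), where 1 of 3 arrays was well above background and replicate 1 lay just below the lowest WT liver. It was the gene whose difference from WT replicate 3 alone (-1.25) was nearest to its full value among the 9 with an unadjusted p below 0.05.

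Lpin1 has 1 RefSeq start site, on the minus strand. It is shown as the gene with the largest difference of the glycerolipid group, and its window holds none of the 4 sets of letters:
Lpin1, chr12:16610967-16611216 (minus strand): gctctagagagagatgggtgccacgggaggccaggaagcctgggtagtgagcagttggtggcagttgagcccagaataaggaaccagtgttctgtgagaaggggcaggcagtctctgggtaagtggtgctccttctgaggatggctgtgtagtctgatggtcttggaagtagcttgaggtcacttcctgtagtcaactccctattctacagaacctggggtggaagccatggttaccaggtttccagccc

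Dgat2, the gene of the acyltransferase that completes triglyceride from newly made fatty acids, had 9.27, 9.28 and 8.28 in WT and 7.96, 8.40 and 8.36 in Gα12 KO, a difference of -0.71 (SE 0.39, limma adjusted p = 0.269) with WT replicate 3 inside the Gα12 KO range. Dgat1, of the other triglyceride-forming enzyme, differed by 0.41 (SE 0.41). The early acyltransferase genes differed by 0.21 (SE 0.32) for Gpam, which starts the glycerol phosphate route, 1.19 (SE 0.73) for Agpat2 and -0.34 (SE 0.40) for Agpat3. Lpin2 and Lpin3, the other lipins, had differences of 1.34 (SE 0.67) and -0.58 (SE 0.39). Pnpla3, a lipid droplet protein gene induced by feeding, had -1.73, -1.30 and -3.80 in WT and -2.20, -3.72 and -4.82 in Gα12 KO, of which 3 of 6 were well above background (difference -1.30, SE 0.83).

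**Figure D4:**
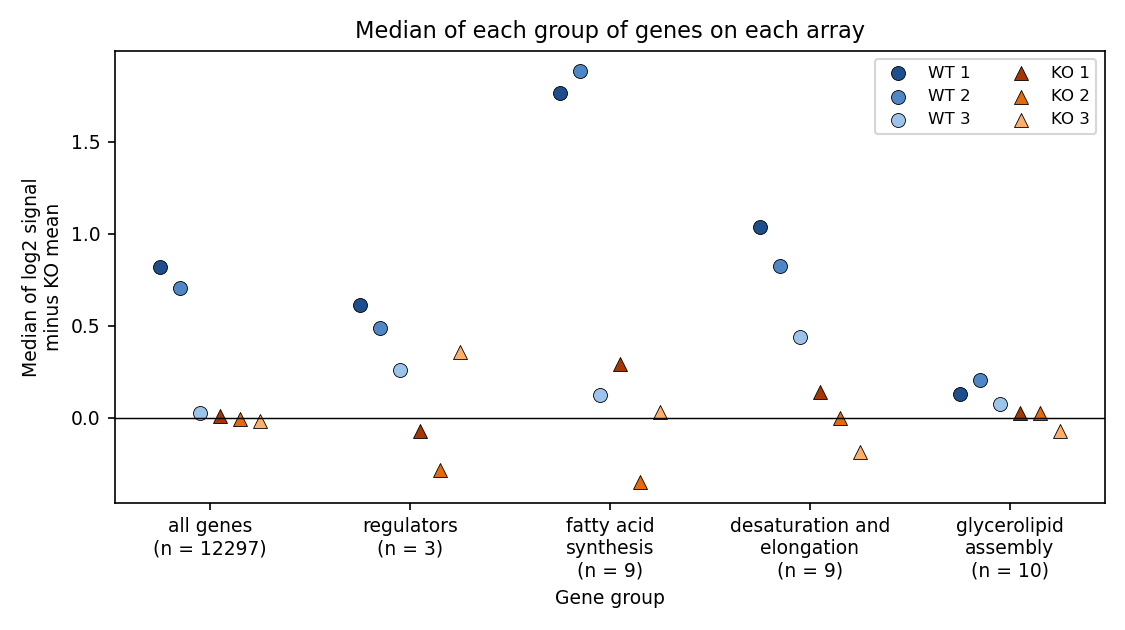
The median over the genes of each role of the log2 signal minus the Gα12 KO mean (y axis) is plotted for each array, beside that over all genes. WT replicates 1 and 2 lie at 1.77 and 1.88 for fatty acid synthesis and at 0.13 and 0.20 for glycerolipid assembly, where 5 genes lay above and 5 below the Gα12 KO range (median distance from the Gα12 KO mean 1.24 and 1.15), and WT replicate 3 lies at 0.07 to 0.44 in the 4 roles.

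Set against WT replicate 3 alone, fewer genes kept their direction. Of 21 genes with a lower mean in Gα12 KO, 15 were also below WT replicate 3, and of 10 with a higher mean, 2 (Srebf1 and Lpin1) were above it, so that 54.8% kept their sign, beside 57.1% of all genes. These values share the Gα12 KO arrays and WT replicate 3 with the full comparison. The 8 genes of fatty acid synthesis with a lower mean were among the 15, and the median of the 9 genes against WT replicate 3 was -0.13, beside -0.03 over all genes. In a limma fit without WT replicates 1 and 2, in which the remaining WT liver is assumed to vary like the Gα12 KO livers, Lpin1 was higher by 1.20 (unadjusted p = 0.0135, adjusted p = 0.625) and Fads2 had a difference of -0.62 (unadjusted p = 0.0433, adjusted p = 0.668).

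Without WT replicate 3 the fit gave a very different account: limma called 19 of the 31 genes at an adjusted p below 0.05, and 13123 of 23132 probes on the array. Fasn then differed by -1.32 (adjusted p = 0.0264), Elovl6 by -1.53 (adjusted p = 0.00590), Mlxipl by -2.02 (adjusted p = 0.00654) and Srebf1 by 4.13 (adjusted p = 0.00546). With any other array left out 0 of the 31 were called. The gap between 0 and 19 genes thus rested on WT replicate 3.

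The genes also varied within Gα12 KO. The median SD over the 3 Gα12 KO livers was 0.31 for the 31 genes and 0.19 for all genes, and in WT it was 0.84 and 0.65. Gα12 KO replicate 1 was the highest of the Gα12 KO livers for 16 of the 31 genes (51.6%, against 35.0% of all genes), including 6 of 9 in fatty acid synthesis. Scd1 at 8.58 against 6.85 and 6.71, Acss2 at 6.68 against 5.39 and 5.69, and Mogat1 at -1.25 against -2.95 and -2.90 show it. Gα12 KO replicate 2 was the lowest for 13 of the 31 genes (41.9%, against 32.1% of all genes), including 7 of 9 in fatty acid synthesis. No test of this order was made.

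Other genes of the route, taken from lists that did not hold the 32, gave a like picture. Of 56 measured genes in 5 lists, 0 passed limma's adjusted test, 8 had an unadjusted p below 0.05 with a lower mean in Gα12 KO and 2 with a higher mean (background 16.6% and 3.98%), and the median difference was -0.44. In the list of SREBP and LXR control (14 genes) Insig1, which retains SREBP in the endoplasmic reticulum and is itself an SREBP target, had 2.73, 2.80 and 3.11 in WT and 2.17, 1.55 and 2.32 in Gα12 KO. The difference was -0.87 (SE 0.34, limma adjusted p = 0.235), and WT replicate 3 was the highest of the 6 livers. Mid1ip1, a relative of Thrsp that promotes polymerisation of acetyl-CoA carboxylase, differed by -1.22 (SE 0.45, limma adjusted p = 0.235). It had 5.62, 5.85 and 4.36 in WT and 3.90, 3.94 and 4.32 in Gα12 KO. WT replicate 3 alone was 0.31 above the Gα12 KO mean. Usf1, for a factor that binds E-boxes, had -5.18, -5.05 and -1.40 in WT and -0.86, -0.58 and -0.98 in Gα12 KO (limma adjusted p = 0.235). Because 1 of the 3 WT arrays was well above background, the difference of the means is not given, and the Gα12 KO mean was 0.59 above WT replicate 3.

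Among other glycerolipid genes, Gpat2, of a mitochondrial glycerol phosphate acyltransferase, had the lowest adjusted p of the 5 lists. Its levels were 1.93, 1.89 and 1.002 in WT and -0.66, -1.05 and -0.73 in Gα12 KO, a difference of -2.42 (SE 0.37, limma adjusted p = 0.143), without overlap, and the Gα12 KO mean was 1.82 below WT replicate 3. Of 8 genes of acyl-CoA synthetases and fatty acid transport, which activate fatty acids, Acsl3 had a difference of -2.24 (SE 0.70), with WT replicate 3, at -0.94, nearer to Gα12 KO (-1.33, -1.96 and -1.14) than to the other WT livers (1.64 and 1.59). Acsl6 was not well above background in any Gα12 KO liver. Its fold set the WT mean against the higher of the signal and the lowest signal well above background on each Gα12 KO array. The WT mean was 3.05-fold higher (limma adjusted p = 0.235), the same as from the signals alone (difference -1.61, SE 0.44). The confidence interval of that difference ran from -2.64 to -0.58, so that the fold is an estimate and not a lower limit. Of 13 genes that supply NADPH and precursors, 2 were lower without overlap, where 21.1% of all genes were. These were the pentose phosphate genes Rpia (-1.08, SE 0.39) and Rpe (-1.37, SE 0.52). For Rpe, WT replicate 3 (1.43) lay just above Gα12 KO replicate 3 (1.38) and 0.22 above the Gα12 KO mean. Acss1, for a mitochondrial acetyl-CoA synthetase, had -1.59, -1.77 and -3.50 in WT, all well above background, and -3.39, -4.75 and -3.96 in Gα12 KO, none of them so. With the fold taken as for Acsl6, the WT mean was 3.26-fold higher (limma adjusted p = 0.235), again an estimate. The difference of the signals was -1.74 (SE 0.60), with a confidence interval of -3.13 to -0.36. WT replicate 3 lay within the Gα12 KO range, so that the fold came from WT replicates 1 and 2. Idh1, for cytosolic isocitrate dehydrogenase, had -2.67, -2.99 and 3.39 in WT and 2.92, 2.65 and 2.96 in Gα12 KO, a difference of the means of 3.60 (SE 1.53, limma adjusted p = 0.237). WT replicate 3 lay above all Gα12 KO livers, and the Gα12 KO mean minus WT replicate 3 was -0.54. Of the 9 measured other genes of desaturation and elongation none had an unadjusted p below 0.05.

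Markers of other cells that make lipid or accompany hepatocytes are given beside these values. The summed signal of 6 adipocyte genes (Adipoq, Plin1, Lep, Retn, Cfd, Adig), on a linear scale relative to the 75th percentile, ran from 1.52 to 2.50 in WT and from 0.580 to 3.36 in Gα12 KO, and Lep was not well above background anywhere. That of 6 stellate cell and fibroblast genes ran from 87.1 to 149 in WT and from 66.2 to 79.3 in Gα12 KO, without overlap, but a single gene, Dcn, made up 88.1% to 93.8% of it. The sum of the other 5 ran from 6.15 to 16.0 in WT and from 4.62 to 6.11 in Gα12 KO. Within the list Lrat differed by -1.42 (SE 0.43, limma adjusted p = 0.235) and Des by 1.28 (SE 0.72). The sum of 5 Kupffer cell genes ran from 67.5 to 151 in WT and from 72.2 to 86.8 in Gα12 KO. The sums for 6 endothelial genes (102 to 130 against 90.5 to 119) and 5 cholangiocyte genes (1.33 to 3.52 against 2.27 to 3.16) overlapped. Single endothelial genes went both ways, 3 with lower and 3 with higher means in Gα12 KO. Among them Cdh5 differed by 2.40 (SE 0.81), Kdr by 2.28 (SE 0.67) and Stab2 by -0.90 (SE 0.40). The sums for 3 red blood cell genes (290 to 524 against 262 to 305) overlapped too, but Hba-a1 made up 79.2% to 86.2% of them. Without Hba-a1 they ran from 60.4 to 95.4 in WT and from 48.1 to 49.9 in Gα12 KO, without overlap. The sums for 5 muscle genes (0.243 to 0.367 against 0.382 to 3.61) did not overlap, with Ckm and Mylpf not well above background. Acta1 made up 26.7% to 71.2% of them, and without it they overlapped (0.136 to 0.210 against 0.199 to 2.16). The 9 hepatocyte genes summed to 4094 to 6849 in WT and 4901 to 6394 in Gα12 KO. The part of other cells in the differences was not tested.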

How the data were processed

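The authors read the arrays with Agilent Feature Extraction, version 10.7.3.1, per the file headers. Linear spot intensity, background-subtracted by that software, and raw medians are what the scanner files hold as deposited. The deposited matrix holds log2 values that differ from the log2 processed intensity by a constant per array, whose choice stays unknown.

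Of 62976 spots, control spots and outlier spots were left out, the 75th percentile of log2 intensity was subtracted on each array, and spots of a probe were averaged. This left 55324 of 55681 probes on all 6 arrays, of which 23132 were well above background on at least 3. Names came from RefSeq by accession (26762 probes matched). Groups were fitted with limma 3.58.1 (R 4.3.3, lmFit and eBayes, two-sided), with Benjamini-Hochberg adjustment over all 23132 probes and a threshold of 0.05. The fit was tested on simulated data whose noise followed the spread of the Gα12 KO arrays on all 6 arrays. The wider spread of the WT arrays was not simulated, so that test does not cover it. Alternatives were other scalings, normexp (offset 50), other filters, the mean over probes, trend and robust variance, the deposited matrix, arrays left out and a replicate block. By rule all 32 genes were named, and from other lists genes with an unadjusted p below 0.05. The genes, roles, lists and alternatives were chosen with earlier results of these data known. Genome positions of probes were not used. The number of arrays limits the precision.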

Additional observations from a re-analysis of the deposited data

How the results depend on the processing

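No alternative except leaving out WT replicate 3 gave an adjusted call among the 31 genes, and the 9 genes with an unadjusted p below 0.05 kept their sign under each of the 16 alternatives in which they had a value, as did 15 of the 31 genes in all. Leaving out each replicate in turn gave 0 to 19 adjusted calls (19 without WT replicate 3), 0 to 16 lower genes at an unadjusted p below 0.05 (0 without Gα12 KO replicate 2, 1 without WT replicate 2, 2 without WT replicate 1) and 1 to 9 higher ones. Over these fits the medians ran from -0.71 to -0.26 for regulators, -1.85 to -1.01 for fatty acid synthesis, -0.93 to -0.13 for desaturation and elongation and -0.17 to 0.0042 for glycerolipid assembly, and Pgd ran from -0.25 to 0.022, with 0.019 without WT replicate 2 and 0.022 without Gα12 KO replicate 2. Without WT replicates 1 and 2, 1 gene was lower and 1 higher, and the fatty acid synthesis median was -0.13. There the sign turned for Slc25a1 (-0.043), Scd1 (-0.54), Elovl1 (0.34), Elovl2 (0.48), Elovl3 (0.61), Fads1 (-0.44), Fads2 (-0.62), Gpam (-0.13), Agpat2 (-0.43), Agpat3 (0.41), Lpin2 (-0.10), Lpin3 (0.11), Dgat1 (-0.30) and Pnpla3 (0.22). Quantile normalization moved the median over all genes from -0.49 to -0.21 and that of fatty acid synthesis to -0.84. It gave 0.056 for regulators, -0.080 for desaturation and elongation and 0.15 for glycerolipid assembly, and turned Thrsp (0.056), Pgd (0.27), Elovl2 (0.28) and Agpat3 (0.20). Scaling to the median of the kept probes gave 0.073 for glycerolipid assembly and 0.033 for Pgd. The mean over probes gave -0.62 for fatty acid synthesis (all genes -0.43), -0.25 for desaturation and elongation and 0.23 for Elovl1. Acly and Me1 then had unadjusted p-values of 0.0594 and 0.0526 in limma. With no filter, glycerolipid assembly was at 0.21. With probes above background on all 6 arrays, 1 gene was higher, regulators were at -0.95 and glycerolipid assembly at 0.31. With the replicate number as a block, 4 genes were higher and 10 lower. Same-numbered arrays had correlations of -0.13, 0.01 and -0.04 in their deviations from the group means. With 3 arrays per group these cannot decide whether the numbers pair livers, and the main fit assumed no pairing. The cause of these shifts was not tested. Signal near background limits Srebf1, Mogat1, Pnpla3, Pnpla5, Usf1 and the second Lpin1 probe. With normexp the difference was -0.62 for Mogat1 (limma unadjusted p = 0.0632), -0.34 for Pnpla3 and 2.04 for Srebf1.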
